A study of Homo sapiens with 4 samples.

Results

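The genes described here are the zinc finger genes named ZNF that were well measured in TE5 cells. They were chosen by name, ZNF followed by a number and at most 1 letter, and by a mean raw count of 200 or more over all 4 libraries, with 1 symbol left out by the rule. The count minimum used the mean over all libraries and not the difference between groups. The ZNF genes as a set, however, were chosen with earlier results of these data known. Of 552 ZNF symbols among 56657 rows of the table, 74 were at 0 in every library and 405 passed the filter on low counts, and 213 reached the minimum. All 213 were tested, and they are called the ZNF members below. They were compared with 9890 other tested genes that reached the same minimum.

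TE5 is an established esophageal squamous cell carcinoma line. RNA was sequenced from cells in 2 groups of 2 libraries: shControl, with a control hairpin, and shNUP153, with hairpin RNA that targets NUP153, a nucleoporin of the nuclear basket. Both groups were infected with lentivirus, selected with puromycin and sampled at day 7, and no other treatment or allele is given for either. The comparison asks what changes in expression when NUP153 is depleted. Nothing in the labels tells whether the replicates of a group were infected or cultured separately. The p-values therefore reflect the spread between these libraries alone, which may be technical. The shNUP153 descriptions end in g1 and g2. The sources used here do not tell whether g1 and g2 are different hairpins, and effects of a hairpin on other genes cannot be told apart from effects of NUP153 loss.

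Most ZNF genes encode proteins with tandem C2H2 zinc fingers, short folds around a zinc ion that read DNA bases. Many also carry a KRAB domain, which binds the scaffold TRIM28 and through it recruits the histone methyltransferase SETDB1 and heterochromatin proteins, so that the bound DNA is silenced. Genes for KRAB zinc finger proteins arose by repeated duplication and lie in clusters, many of them on chromosome 19, where their own bodies carry heterochromatin marks. Other ZNF proteins have quite different work, from RNA processing to sensing stalled ribosomes, because the name follows the zinc finger and not the function.

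Library totals ran from 22606593 to 27396268 counts. NUP153 stood at 149 and 142 CPM (the level per library after TMM scaling for its size) in shControl and at 67.9 and 81.9 CPM in shNUP153, a log2 fold change of -0.96 ± 0.062 (SE). Of 8 squamous markers, KRT5, KRT6A, KRT17, TP63, SOX2, DSG3 and SFN were expressed and KRT14 had 6 to 13 counts per library. KRT17 rose (log2 fold change 0.76), KRT5, SOX2 and KRT6A fell (-0.68, -0.34 and -0.23), and TP63, DSG3 and SFN did not pass the test. Of 9 markers of other cells, LUM was at 0 in all libraries, PTPRC, CD3E, PECAM1 and PDGFRB had at most 3 counts in any library, and COL1A2 had 2 to 12. The endothelial cadherin gene CDH5 was at 11.3 and 9.64 CPM in shControl and 22.8 and 22.2 CPM in shNUP153 (log2 fold change 1.11). SYP rose from 0.766 and 0.938 CPM to 2.04 and 2.15 CPM (1.28, adjusted p = 0.00107), and CHGA reached at most 0.540 CPM. The part of these markers in the ZNF results was not tested. In bulk RNA, fewer cells of a type and less RNA per cell cannot be told apart.

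ZNF members were more often higher than lower after NUP153 depletion, by small amounts. With edgeR at an adjusted p under 0.05, 66 of 213 rose (31%) and 11 fell (5.16%), while 136 did not pass the test. Among all 16817 tested genes 15% were higher and 17.4% lower, and among the 9890 other genes of the same minimum 17.4% were higher and 26.4% lower. DESeq2 called 37 members higher and 9 lower (17.4% and 4.23%), against 12% and 20.2% of the other genes. Members had a median log2 fold change of 0.14, against -0.030 for the other genes and 0.0054 for all tested genes. A positive value was found for 154 members and a negative one for 59. The difference between members and other genes was not tested, since the members were chosen with earlier results of these data known. When counts were scaled to library totals alone, 95 members were higher and 9 lower, and the share of all called genes that were higher went from 46.3% to 62.8%.

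The changes were small in size. Risers had a fold of 1.1 to 2, with a median of 1.26, and their standard errors ran from 0.047 to 0.13 on the log2 scale. Among genes past the test, 4 of 213 members rose and 2 fell by 1.5-fold or more. Of the 9890 other genes with the same minimum, 167 rose and 281 fell by as much. Both shNUP153 libraries lay above both shControl libraries for 119 members (55.9%) and below them for 35 (16.4%), against 31.2% and 41.5% of the other genes. All 77 members past the test had groups that did not overlap. With either shNUP153 library left out, fewer members and fewer other genes passed the test. Without shNUP153 replicate 1 the share of risers among members was also closer to that among other genes. The median log2 fold change was then 0.12 for members and -0.029 for other genes with the same minimum. Without shNUP153 replicate 2 these medians were 0.13 and -0.033.

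**Figure D1:**
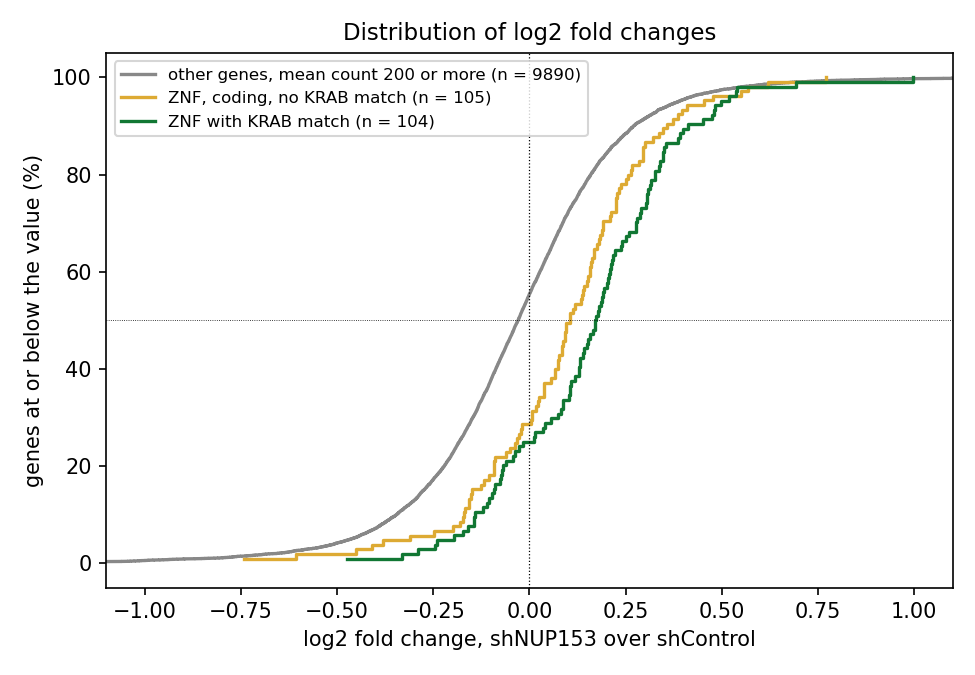
Cumulative share of genes (y axis, percent) at or below each log2 fold change, shNUP153 over shControl (x axis), for ZNF members with a KRAB match (n = 104), coding ZNF members without one (n = 105) and other genes with a mean count of 200 or more (n = 9890). Both ZNF curves lie to the right of the other genes over most of their length, with medians of 0.17 and 0.10 against -0.030.

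Summed over the 213 genes, ZNF transcripts made up 0.603% and 0.59% of all counts in the shControl libraries and 0.671% and 0.658% in the shNUP153 libraries. The summed level was 6140 and 6061 CPM in shControl and 6533 and 6488 CPM in shNUP153. Both shNUP153 sums lay above both shControl sums. Members with a KRAB match summed to 2220 and 2181 CPM in shControl and to 2444 and 2426 CPM in shNUP153, and coding members without one to 3843 and 3808 against 4018 and 3989 CPM.

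Members had a median mean count of 479.5 and the other genes one of 1101, so the comparison was repeated within ranges of abundance, and the lean towards higher values was found in each of 4 ranges. Among 88 members with a mean count from 200 to under 400, 29.5% rose and 1.14% fell, against 16.2% and 15.9% of 1597 other genes of that range. For 67 members from 400 to under 800 the shares were 29.9% and 5.97%, against 16.7% and 20.1% of 2157 others. From 800 to under 1600, 27.5% of 40 members rose and 10% fell, against 18.2% and 24.9% of 2423 others. The 18 most abundant members, at 1600 counts or more, had 50% higher and 11.1% lower, against 17.9% and 35.5% of 3713 others. Median log2 fold changes of the members were 0.15, 0.16, 0.09 and 0.12 from the lowest range to the highest. Other genes went from 0.0066 in the lowest range to -0.058 in the highest.

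**Figure D2:**
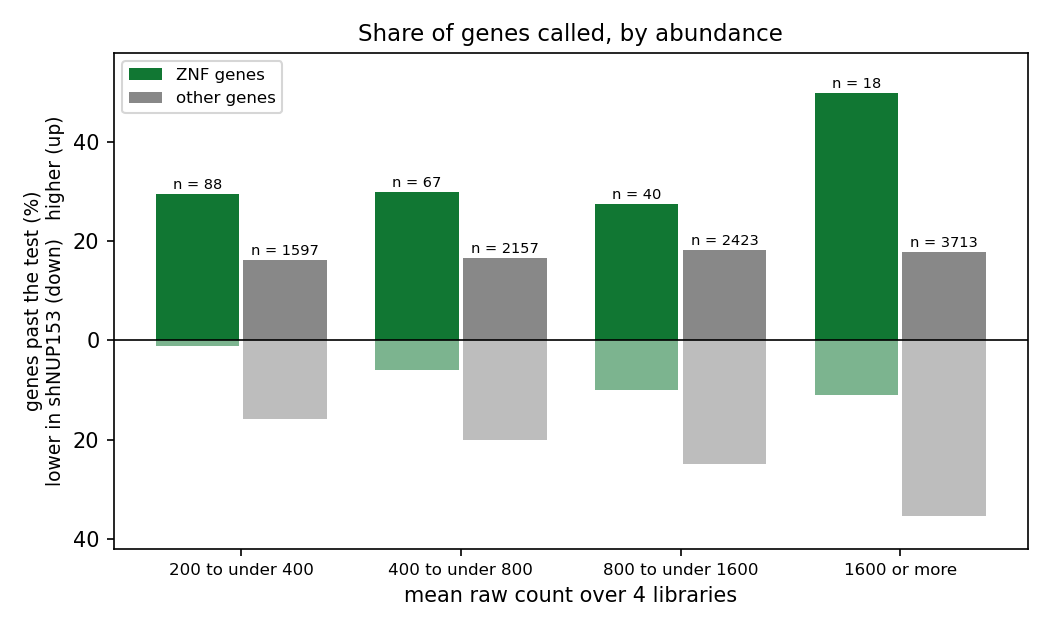
Percent of genes past the test (y axis; higher in shNUP153 above the line, lower below it) in 4 ranges of mean raw count (x axis), for ZNF members in green and other genes in grey, with the number of genes above each bar. In each range the green bar above the line is the taller and the green bar below it the shorter, for example 29.5% against 16.2% higher among genes with 200 to under 400 counts.

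The minimum of 200 fell within a run of similar genes. Just inside it were ZNF557 and ZNF786 with a mean count of 201.75, ZNF616 with 204.75 and ZNF668 with 205. Just outside were ZNF691 with 199.75, ZNF862 with 197.25, ZNF296 with 197 and ZNF800 with 195. Among the 192 tested ZNF genes below the minimum, 28 were higher (14.6%) and 5 lower (2.6%), with a median log2 fold change of 0.13. Of the 6522 other tested genes below it 10.8% were higher and 4.65% lower, with a median of 0.10, so at low counts the medians lay close together.

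Among the KRAB genes the largest rise was that of ZNF432, on chromosome 19. It measured 7.44 and 5.66 CPM in shControl and 13.0 and 12.9 CPM in shNUP153, a log2 fold change of 1.00 ± 0.13 (SE), adjusted p = 1.24e-07. Its neighbour ZNF841 went from 11.6 and 11.9 CPM to 18.9 and 19.05 CPM (log2 fold change 0.69 ± 0.099, adjusted p = 8.2e-07). In both genes the groups were well apart, and the shNUP153 libraries lay within 0.2 CPM of each other. ZNF358, a gene of the same chromosome whose product has no KRAB match, was at 8.97 and 9.26 CPM in shControl and at 12.4 and 13.1 CPM in shNUP153 (0.48 ± 0.11, adjusted p = 0.00115).

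Their promoter sequences are shown because these 3 rising genes of chromosome 19 differ in the motifs searched. Each is the 250 bases before the RefSeq start in GRCh38.p14, 5′ to 3′ on the gene's strand. ZNF432 lies on the minus strand at chr19:52048839-52049088, ZNF841 on the minus strand at chr19:52095766-52096015 and ZNF358 on the plus strand at chr19:7515853-7516102. Capitals mark GGGCGG on either strand (so CCGCCC where it is on the opposite strand), the core of the GC box, and ACTACA followed by any 2 bases and TCCC, a form of the element bound by ZNF143.
ZNF432: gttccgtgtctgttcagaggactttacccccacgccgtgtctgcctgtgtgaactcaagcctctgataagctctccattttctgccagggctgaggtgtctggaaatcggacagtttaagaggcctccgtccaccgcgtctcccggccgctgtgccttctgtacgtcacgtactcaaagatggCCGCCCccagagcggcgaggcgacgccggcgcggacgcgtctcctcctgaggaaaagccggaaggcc
ZNF841: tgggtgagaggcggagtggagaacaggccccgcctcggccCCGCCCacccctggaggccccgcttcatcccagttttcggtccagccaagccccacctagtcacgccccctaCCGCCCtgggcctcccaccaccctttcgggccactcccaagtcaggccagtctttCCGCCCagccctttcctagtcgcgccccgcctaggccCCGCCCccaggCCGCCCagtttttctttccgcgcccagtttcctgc
ZNF358: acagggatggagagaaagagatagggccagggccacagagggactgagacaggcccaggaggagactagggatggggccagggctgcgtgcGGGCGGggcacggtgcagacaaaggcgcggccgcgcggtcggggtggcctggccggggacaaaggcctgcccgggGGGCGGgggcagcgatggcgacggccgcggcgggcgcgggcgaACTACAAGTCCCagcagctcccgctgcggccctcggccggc
ZNF432 held 1 GGGCGG, ZNF841 held 5 and ZNF358 held 2, together with 1 ACTACA element. CCAAT was found in none of these 3 stretches.

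RefSeq promoters, 300 bases from 250 before to 50 after the start, were matched by symbol for 177 of the 213 members. Motifs were searched on both strands, and none of them contains another. The ACTACA element was in 14 member promoters (7.91%), against 4.03% of 7811 matched promoters of other genes with the same minimum and 1.96% of all 27305 promoters. It was in 6 of 56 matched risers (10.7%), in none of 7 matched fallers, in 8 of 114 matched members not past the test (7.02%) and in 12.5% of 56 matched chromosome 19 members. The risers with it were ZNF358, ZNF354A, ZNF260, ZNF189, ZNF317 and ZNF146. Of these, ZNF146 missed the threshold with DESeq2 (adjusted p = 0.102) and with shControl replicate 2 or either shNUP153 library left out. GGGCGG was in 67.8% of member promoters, 72.6% of those of other genes and 44.6% of all. CCAAT was in 40.1%, 37.2% and 35.7%, and TATAAA in 2.26%, 5.12% and 12%. TGACTCA, a form bound by AP-1, was in 2.82%, 3.01% and 4.92%, and TTTC followed by any 2 bases and TTTC, part of the interferon response element, in 1.69%, 2.85% and 3.65%. A match describes letters and is not a measured site.

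ZNF143 itself, an activator that binds many promoters of housekeeping genes, was at 15.9 and 16.8 CPM in shControl and at 19.5 and 18.7 CPM in shNUP153. The groups did not overlap, and the test was not passed (log2 fold change 0.23 ± 0.093, adjusted p = 0.0624), although it was with total-count scaling (adjusted p = 0.0148). Its paralogue ZNF76 measured 38.1 and 42.9 CPM against 41.0 and 39.0 CPM, with overlapping groups (-0.02, adjusted p = 0.865).

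KRAB genes were the larger share of the risers. Of 104 members whose longest reading frame matched a KRAB pattern, 38 rose and 3 fell, with a median log2 fold change of 0.17. Of 105 coding members without a match, 28 rose and 8 fell, with a median of 0.10. The shares were 36.5% higher and 2.88% lower with a match, and 26.7% and 7.62% without one. Other genes with the same minimum had 17.4% and 26.4%. The 4 members annotated as pseudogenes, ZNF252P, ZNF767P, ZNF271P and ZNF204P, did not pass the test. The difference between KRAB and other members was not tested. On chromosome 19, 47.8% of KRAB members and 46.8% of all members rose, and on other chromosomes 27.6% and 24.5% did. The part of chromosome 19 in the KRAB difference was not tested. With either shNUP153 library left out, fewer members passed the test as higher, both with and without a KRAB match. Without shNUP153 replicate 1 the medians were 0.167 with a match and 0.098 without one. Without shNUP153 replicate 2 they were 0.185 and 0.121.

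Further KRAB genes among the 15 largest rises were ZNF721, ZNF669, ZNF274, ZNF778, ZNF426, ZNF561 and ZNF267. ZNF274, which binds the ends of other ZNF genes and brings SETDB1 to them, was at 13.1 and 13.4 CPM in shControl and at 19.3 and 18.7 CPM in shNUP153 (0.52 ± 0.097, adjusted p = 5.98e-05). ZNF561 measured 25.4 and 25.6 CPM against 36.9 and 34.2 CPM (0.48 ± 0.078, adjusted p = 7.17e-06). Control libraries lay well below both others for each gene. In ZNF267 the shControl libraries themselves differed, at 27.0 and 22.2 CPM, with 34.4 and 33.6 CPM in shNUP153 (0.47 ± 0.084, adjusted p = 2.98e-05). ZNF721 likewise had 12.1 and 8.81 CPM in shControl and 15.2 and 14.96 CPM in shNUP153 (0.54 ± 0.12, adjusted p = 0.000461). ZNF669, ZNF778 and ZNF426 had log2 fold changes of 0.54, 0.50 and 0.48.

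The KRAB genes that fell were ZNF41, ZNF33A and ZNF33B. ZNF41, on chromosome X, was at 11.9 and 8.93 CPM in shControl and at 7.56 and 7.29 CPM in shNUP153 (-0.47 ± 0.13, adjusted p = 0.00609). The higher shControl library carried much of that difference, and without shControl replicate 1 the value was -0.27 (adjusted p = 0.2). ZNF41 also missed the threshold with DESeq2 (adjusted p = 0.0521) and with either shNUP153 library left out (log2 fold changes -0.50 and -0.45). The chromosome 10 pair ZNF33A and ZNF33B are close copies that share 20.3% and 21.1% of their 31-base stretches with other genes, so their reads may be divided between them. ZNF33B had 34.2 and 32.3 CPM in shControl and 26.8 and 26.0 CPM in shNUP153 (-0.33 ± 0.078, adjusted p = 0.000967). ZNF33A had 31.8 and 30.8 CPM against 25.9 and 26.8 CPM (-0.25 ± 0.078, adjusted p = 0.0137). It missed the threshold with DESeq2 (adjusted p = 0.0714) and with total-count scaling (adjusted p = 0.0737). The same held with either shNUP153 library left out (log2 fold changes -0.22 and -0.27).

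Position on the genome showed the most uneven split of the members, although a split by position was not planned. Of 62 members on chromosome 19, 29 rose and none fell, with a median log2 fold change of 0.22 and 54 positive values. The 515 other genes of that chromosome with the same minimum had 107 higher and 116 lower and a median of 0.0016. The 151 members on other chromosomes had 37 risers and 11 fallers and a median of 0.10. Within chromosome 19, 22 of 46 KRAB members rose, and outside it 16 of 58 rose and 3 fell, with medians of 0.21 and 0.14. These differences were not tested. With single libraries left out, the chromosome 19 risers numbered 12 without shNUP153 replicate 1, 17 without shNUP153 replicate 2, 18 without shControl replicate 2 and 25 without shControl replicate 1, and DESeq2 called 15. None fell in any of these.

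Beyond chromosome 19, chromosome 16 had 8 risers and no faller of 24 members, and chromosome 7 had 6 and none of 20. Of the 480 other genes of chromosome 16 with the same minimum, 18.3% were higher and 21.5% lower. For 470 such genes of chromosome 7 the shares were 19.6% and 24.3%. These differences were not tested. Chromosome 10 had 1 riser and 3 fallers of 10 members and a median of -0.11. Other genes with the same minimum, over all chromosomes, were higher in 17.4% and lower in 26.4%. The 10 members were not tested against that share. The single riser of chromosome 10 was ZNF503, and its fallers were ZNF488 and the close copies ZNF33A and ZNF33B.

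Members were grouped where neighbours lay within 500 kb. No group was tested against the other genes with the same minimum, of which 17.4% were higher and 26.4% lower. The largest group, on chromosome 19 from ZNF614 to ZNF813, held 17 members within 1.48 Mb, all with a KRAB match. Of these, 8 rose (ZNF614, ZNF432, ZNF841, ZNF480, ZNF83, ZNF28, ZNF468 and ZNF845) and none fell, with log2 fold changes from -0.14 to 1.00. The median was 0.22 and 14 of the 17 values were positive. The negative values were those of ZNF766, ZNF160 and ZNF525, at -0.04, -0.03 and -0.14, none past the test. Reads are hard to assign for some genes of this group. ZNF468 shares 99% of its 31-base stretches with other genes, mainly ZNF320, while ZNF432 and ZNF480 share 4.6% and 3.3%.

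The chromosome 19 group from ZNF414 to ZNF562 held 8 members, of which 5 rose, with a median of 0.27. In the group from ZNF628 to ZNF444, also on chromosome 19, 8 of 8 members had positive values and 2 passed the test, although none has a KRAB match. The 10 members from ZNF264 to ZNF324, all with a KRAB match, had 3 risers. On chromosome 7, all 4 members from ZNF789 to ZNF3 rose, by 0.14 to 0.28 on the log2 scale. Exons of ZNF789 and ZNF394 overlap each other by 445 bases on opposite strands. If counting did not use strand, reads of that overlap cannot be assigned to either gene. On chromosome 16, 4 of 6 members from ZNF205 to ZNF174 rose, whereas 1 of 10 members from ZNF48 to ZNF646 did.

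**Figure D3:**
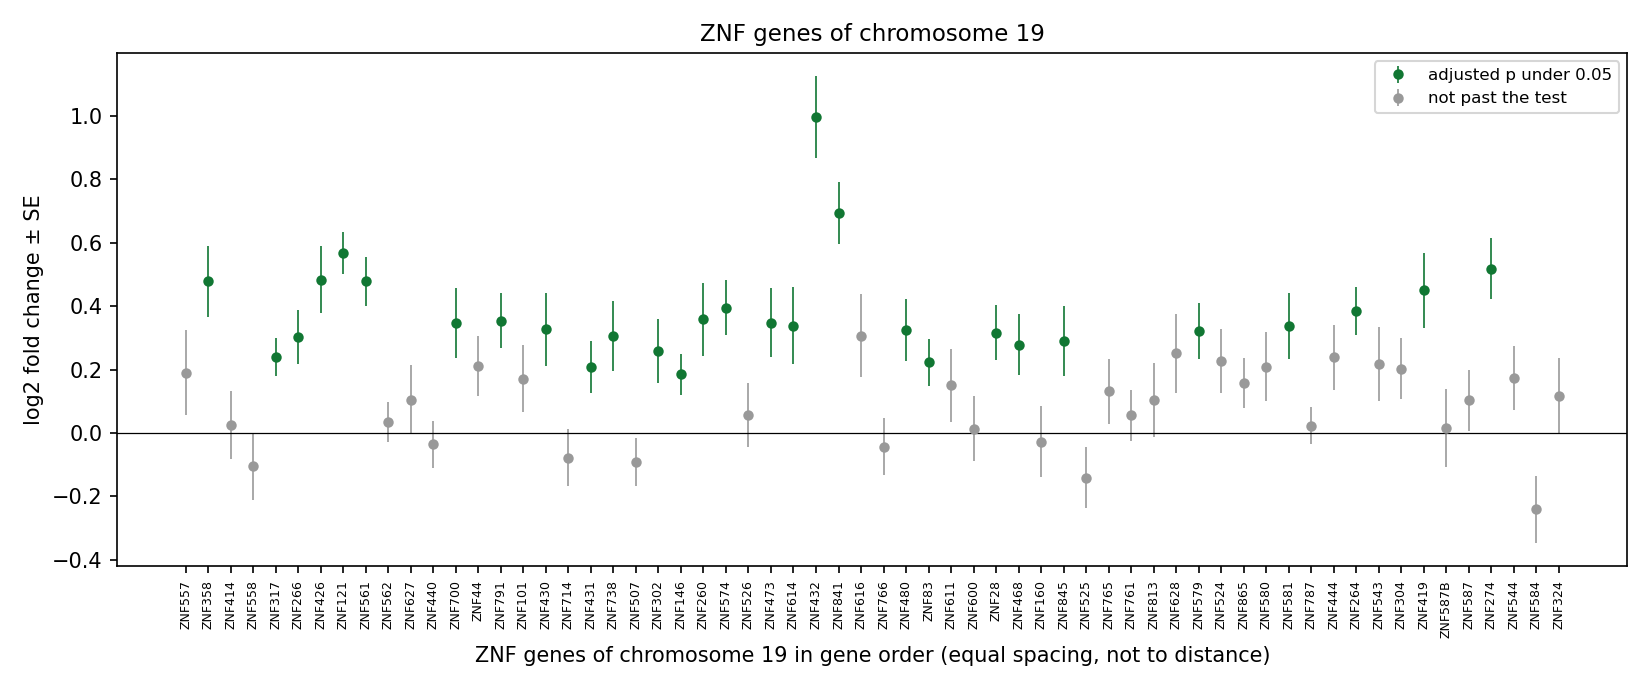
Log2 fold change, shNUP153 over shControl, with its SE (y axis) for the 62 ZNF members of chromosome 19 in gene order, evenly spaced (x axis). The 29 green points passed the test and all lie above 0, the grey points lie on both sides of it, and ZNF432 at 1.00 is the highest.

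The number of fingers was counted by pattern in the longest reading frame. Coding members had a median of 9, with 11 for KRAB members and 8 for the others, and ZNF142 had the most with 35. Among other genes with the same minimum count, 17.4% were higher and 26.4% lower. Of 56 members with 0 to 5 fingers, 13 rose (23.2%) and 6 fell (10.7%). Of 88 with 6 to 11, 32 rose (36.4%) and 1 fell (1.14%). Of 65 with 12 or more, 21 rose (32.3%) and 4 fell (6.15%). The medians were 0.08, 0.16 and 0.16. In 6 members no C2H2 pattern was found: ZNF503, ZNF738, ZNF839, ZNF185, ZNF720 and ZNF330.

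Outside the KRAB class the largest rise was that of ZNF503, a transcriptional repressor of limb and brain development. It was at 6.81 and 7.84 CPM in shControl and at 11.7 and 13.5 CPM in shNUP153 (0.77 ± 0.12, adjusted p = 6.2e-06). Its exons overlap 388 bases of the opposite-strand gene ZNF503-AS2, which averaged 1.41 CPM in shControl and 1.44 CPM in shNUP153. ZNF697 measured 16.4 and 15.5 CPM against 25.6 and 23.3 CPM (0.62 ± 0.091, adjusted p = 1.36e-06).

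ZNF121 had 41.7 and 41.1 CPM in shControl and 58.8 and 64.0 CPM in shNUP153 (0.57 ± 0.065, adjusted p = 1.26e-08). ZNF217, an oncogene often amplified in breast cancer, was at 28.2 and 28.8 CPM in shControl and at 41.4 and 42.2 CPM in shNUP153 (0.55 ± 0.073, adjusted p = 2.2e-07). For all of these genes the shNUP153 libraries were clearly the higher, and their calls were kept in all 11 alternative settings. ZNF75A, at 8.93 and 8.96 CPM against 13.0 and 11.5 CPM (0.45 ± 0.12, adjusted p = 0.0026), lost its call without shNUP153 replicate 1 (adjusted p = 0.0951).

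Falls were led by genes without a KRAB match. ZNF488, a repressor studied in oligodendrocyte differentiation, was at 71.2 and 68.4 CPM in shControl and at 44.2 and 39.0 CPM in shNUP153 (-0.74 ± 0.066, adjusted p = 3.4e-11). ZNF618, a partner of UHRF2 on chromatin, was at 44.8 and 44.9 CPM against 29.4 and 29.5 CPM (-0.61 ± 0.072, adjusted p = 2.03e-08). Replicates of each group differed little beside the distance between groups, most plainly for ZNF618.

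ZNF609, which works with cohesin loading factors and gives rise to a well-studied circular RNA, had 80.6 and 75.5 CPM in shControl and 60.5 and 57.0 CPM in shNUP153 (-0.41 ± 0.060, adjusted p = 1.48e-06). ZNF219, a cofactor of SOX9 in cartilage, measured 44.1 and 49.8 CPM against 35.6 and 36.7 CPM (-0.38 ± 0.072, adjusted p = 7.03e-05). Both lay lower in shNUP153 with no overlap, which holds for every member past the test.

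The related genes ZNF395 and ZNF704 fell as well. ZNF395 was at 30.9 and 32.3 CPM in shControl and at 22.8 and 23.6 CPM in shNUP153 (-0.45 ± 0.080, adjusted p = 3.01e-05), and it shares 42.1% of its 31-base stretches with other genes, mostly FBXO16. ZNF704 was at 33.0 and 32.2 CPM against 27.6 and 24.99 CPM (-0.31 ± 0.079, adjusted p = 0.00232). ZNF672 and ZNF207 fell by less. ZNF672 had a log2 fold change of -0.25, and ZNF207, a kinetochore protein that binds BUB3, went from 183 and 182 CPM to 163 and 165 CPM (-0.16 ± 0.048, adjusted p = 0.0109). ZNF704 and ZNF672 lost their calls without shNUP153 replicate 2 (adjusted p = 0.105 and 0.0618). ZNF207 lost its call without either shNUP153 library (adjusted p = 0.158 and 0.0858) and when counts were scaled to library totals.

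**Figure D4:**
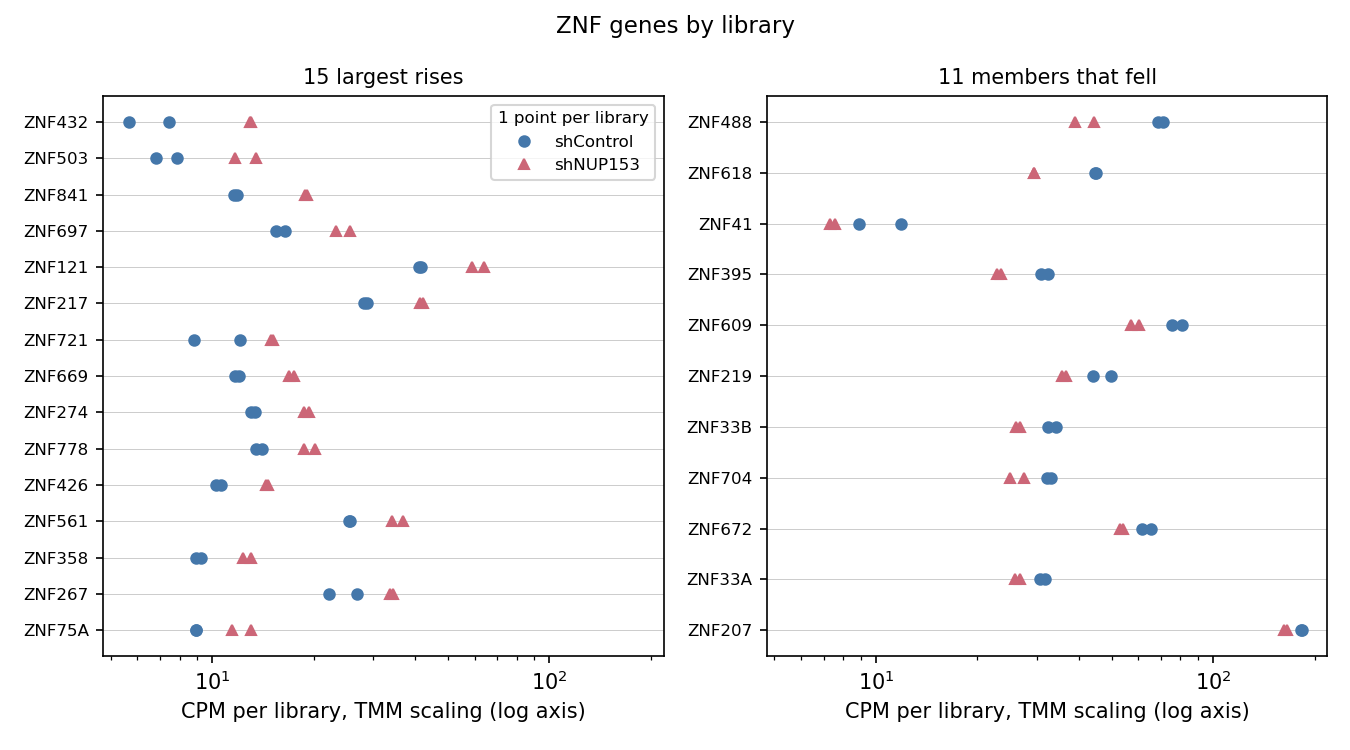
CPM with TMM scaling on a log axis (x axis), 1 point per library, for the 15 members with the largest rise (left) and the 11 members that fell (right), circles for shControl and triangles for shNUP153. The genes were picked among members past the test whose groups did not overlap. By that choice the triangles of each row lie wholly to one side of the circles, as for ZNF488 at 71.2 and 68.4 against 44.2 and 39.0.

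A list of 52 ZNF genes with a studied function included 40 members, of which 15 rose, 4 fell and 21 did not pass the test, with a median log2 fold change of 0.11. Over other genes with the same minimum, 17.4% were higher and 26.4% lower. ZNF622, which binds the large ribosomal subunit, was at 66.4 and 66.7 CPM in shControl and at 87.3 and 85.2 CPM in shNUP153 (0.37 ± 0.057, adjusted p = 2.38e-06). ZNF598, the ubiquitin ligase that marks collided ribosomes, had 117 and 120 CPM against 141 and 136 CPM (0.23 ± 0.051, adjusted p = 0.00064), with an adjusted p of 0.0531 when shNUP153 replicate 1 was left out. Per kilobase of exon, ZNF622 had the highest level of all members, at 45.0 CPM per kb over the 4 libraries, against a median of 3.58 CPM per kb.

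Of the partners in the ZMYND8-bound complex, ZNF687 rose (0.23, adjusted p = 0.00888; 0.198 with shNUP153 replicate 1 left out). ZNF592 and ZNF532 had values of -0.15 and -0.09 that did not pass the test, although ZNF592 passed it with shControl replicate 2 left out (-0.19, adjusted p = 0.018). ZNF281, a partner of MYC, rose by 0.27 (adjusted p = 0.0119), a call that did not hold with DESeq2 (adjusted p = 0.0651). ZNF281 also missed the threshold when shControl replicate 1 or either of the shNUP153 libraries was left out. Its paralogue ZNF148 was at 54.7 and 50.8 CPM in shControl and at 57.3 and 59.6 CPM in shNUP153 (0.15 ± 0.063, adjusted p = 0.0682), and passed the test with shControl replicate 1 left out (adjusted p = 0.0137). ZNF292, a tumour suppressor with many fingers, rose from 31.1 and 29.8 CPM to 38.01 and 39.4 CPM (0.35 ± 0.074, adjusted p = 0.000334). ZNF185, which despite its name is a LIM domain protein of the actin cytoskeleton, rose by 0.17 (adjusted p = 0.0124), with 0.0665 and 0.204 when either shNUP153 library was left out.

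Several well-known members showed little difference. ZNF638, which acts with the HUSH complex in silencing unintegrated retroviral DNA, had 83.0 and 78.0 CPM in shControl and 83.2 and 86.1 CPM in shNUP153 (0.07 ± 0.057, adjusted p = 0.348). ZNF326, a splicing factor of the DBIRD complex, had 60.6 and 59.1 CPM against 59.8 and 60.3 CPM (0.01 ± 0.060, adjusted p = 0.957). ZNF335, a regulator of neural progenitors, had 57.8 and 60.7 CPM against 60.8 and 60.9 CPM (0.04 ± 0.061, adjusted p = 0.686). With these standard errors a missed threshold does not show that levels were equal.

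The 5 members with the highest mean CPM were ZNF655, ZNF207, ZNF512B, ZNF598 and ZNF664. ZNF655 was at 225 and 215 CPM in shControl and at 245 and 240 CPM in shNUP153 (0.14 ± 0.047, adjusted p = 0.0199), and its adjusted p became 0.0869 when shControl replicate 2 was left out, and 0.201 and 0.119 when either shNUP153 library was. ZNF512B had 121 and 130 CPM against 156 and 153 CPM (0.30 ± 0.051, adjusted p = 1.62e-05) and kept its call in all 11 alternative settings. ZNF664 rose by 0.16 (adjusted p = 0.0309) but missed the threshold with DESeq2 (adjusted p = 0.106). Its value was 0.07 without shControl replicate 2. It also missed the threshold with either shNUP153 library left out (log2 fold changes 0.11 and 0.20). Of these 5 genes only ZNF207 was lower in shNUP153.

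Proteins that KRAB zinc finger proteins recruit, or that act with them in heterochromatin, were taken as a list of 25 genes, all tested. None was higher and 11 were lower (44%), with a median log2 fold change of -0.10. These are abundant genes, with a median mean count of 2409, and among other genes with 1600 counts or more 35.5% were lower and the median was -0.058. The difference was not tested. The scaffold TRIM28 was at 337 and 367 CPM in shControl and at 323 and 353 CPM in shNUP153 (-0.06 ± 0.049, adjusted p = 0.386), and the methyltransferase SETDB1 at 27.3 and 25.4 against 27.7 and 27.1 CPM (0.06 ± 0.081, adjusted p = 0.617). The groups overlapped in both.

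Among the 11 that fell, UHRF1, which guides maintenance of DNA methylation, went from 143 and 164 CPM to 109 and 111 CPM (-0.49 ± 0.056, adjusted p = 1.23e-08). The methyltransferase DNMT1 went from 339 and 355 CPM to 266 and 276 CPM (-0.36 ± 0.046, adjusted p = 1.02e-07). TRIM24 fell by 0.44, the histone methyltransferases EHMT2 and SUV39H1 by 0.34 and 0.33, and the remodeller CHD4 by 0.28. ATF7IP, a partner of SETDB1, fell by 0.24, the heterochromatin proteins CBX3 and CBX5 by 0.23 each, HDAC1 by 0.21 and MPHOSPH8 of the HUSH complex by 0.19. Without shNUP153 replicate 1, 6 of the 25 were lower, and ATF7IP, CBX3, HDAC1, MPHOSPH8 and SUV39H1 no longer passed. MPHOSPH8 also missed the threshold without shControl replicate 1 and SUV39H1 without shControl replicate 2. So did MPHOSPH8 with total-count scaling (adjusted p = 0.0759) and SUV39H1 with DESeq2 (adjusted p = 0.0553).

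Related zinc finger families with other names were counted at the same minimum, at which 17.4% of the genes that are not members were higher and 26.4% lower. The families hold few genes, and their differences from that background were not tested. Of 31 ZBTB genes, whose products pair fingers with a BTB domain, 12 rose and 2 fell, with a median log2 fold change of 0.13. All 4 ZSCAN genes and 2 of 3 ZKSCAN genes rose. Of 9 ZFP genes, 2 rose and 1 fell, with a median of 0.0060. Of 8 KLF genes, 3 rose and none fell, and of 5 SP genes, which share the finger design of the KLF family, none rose and 3 fell, with a median of -0.24.

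GC content and length, which can affect counting, were set beside the result in 3 bands of equal size among the abundant genes. In the low, middle and high GC bands the members' medians were 0.15, 0.12 and 0.13, and those of other genes -0.041, -0.048 and -0.0023. In short, middle and long genes they were 0.16, 0.17 and 0.10, against -0.032, -0.036 and -0.023. Reads that could belong to another gene were looked at for members only, without a matching set of other genes. Exons of 75 members overlap those of a gene on the opposite strand, and the sources used here do not tell whether counting used strand. Of the 138 members without such an overlap 40 rose (29%) and 9 fell (6.52%), with a median of 0.12. Of the 125 members that share under 5% of their 31-base stretches with other genes 34 rose (27.2%) and 7 fell (5.6%). Their median was also 0.12. Other genes with the same minimum, not split in this way, were higher in 17.4% and lower in 26.4%.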

How the data were processed

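RNA of 4 TE5 libraries was analysed as raw read counts per gene, as the authors deposited them. The table is named for FPKM, but what the authors deposited are whole numbers whose totals differ between libraries, which is how counts look. The submitters' processing notes name kallisto, DESeq2, Bowtie2, deepTools and the build hg19. The sources used here do not say which of them made the counts, with what annotation, or whether strand was used.

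The test was that of edgeR 4.0.16, run in R 4.3.3 (filterByExpr with a minimum count of 10 and total of 15, TMM scaling, quasi-likelihood test, two-sided, Benjamini-Hochberg adjustment over 16817 genes, threshold 0.05). The standard error was derived from the log2 fold change and its F statistic. Replicates differed by more than sampling noise, with a chi-square of 3.57 per gene in shControl and 3.09 in shNUP153 (genes of at least 20 counts). On simulated counts for 16817 genes in this comparison, the test recovered 26% of genes with a 1.2-fold change, 66% of those with 1.5-fold, 90% of those with 2-fold and 88% of those with 4-fold, and 8 of 16617 unchanged genes were called.

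Members and lists were chosen with earlier results of these data known. Named genes were NUP153, the 15 members with the largest rises and up to 15 with the largest falls among calls whose groups do not overlap, the 5 with the highest mean CPM, the 4 nearest the minimum on each side, the KRAB corepressor genes past the threshold and the list of studied functions; further members named by group, finger count or motif, and TRIM28 and SETDB1, were chosen after their values were seen. KRAB and C2H2 classes were planned from a protein table. They come instead from patterns in the longest reading frame of GENCODE 29 transcripts, which miss diverged KRAB boxes. Overlaps, shared 31-base stretches, GC content, length and gene order come from the same annotation (GRCh38), whose build differs from hg19, so apart from the printed RefSeq promoters no coordinates are given. Alternatives were RLE and total-count scaling, other filters and count minimums, DESeq2 1.42.0, limma-trend 3.58.1 with a prior count of 1, a replicate block, and each library left out.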

Additional observations from a re-analysis of the deposited data

How the results depend on the processing

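The median of members minus that of other genes with the same minimum count was 0.165 to 0.169 as reported and under the alternatives that kept the members, except without shNUP153 replicate 1, where it was 0.148. A change of scaling or filter shifts all genes by nearly the same amount. Those settings could therefore hardly move this difference, and its steadiness under them says nothing about the members. Replicate numbers did not pair the libraries (correlation over 16817 genes of the differences between replicates 1 and 2 in each group, r = -0.007). A fit with the replicate block called 67 members higher and 11 lower, 65 and 11 of them the same as without it. DESeq2 called 37 members higher, 23 with and 14 without a KRAB match, 1 KRAB member lower, 15 higher on chromosome 19, and 1444 of all genes higher. Total-count scaling called 45 members without a KRAB match and 3 corepressor genes higher, moved the medians to 0.2028 (members), 0.2361 (KRAB), 0.1682 (non-KRAB), 0.2841 (chromosome 19) and -0.04138 (corepressors), and turned that of other genes to 0.03378. Testing only genes with 200 counts or more gave 0.1671, 0.2004, 0.1324, 0.2486, -0.07666 (with 2 corepressor genes higher) and -0.001656 in the same order. With no filter the medians of members, corepressors and other genes were 0.1282, -0.1157 and -0.04071. A minimum of 400 left 40 higher members and a median of 0.129. Added after the data were seen, members without an opposite-strand overlap gave 0.1191 and those with few shared stretches 0.1176. The chromosome 19 results were not planned either.

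With each library left out in turn, members higher numbered 28 to 62 and lower 6 to 15, with medians of 0.1197 to 0.1334. KRAB members higher numbered 17 to 33 and lower 1 to 4 (medians 0.1674 to 0.1976), other coding members 11 to 29 and 5 to 10 (0.09128 to 0.1206), and chromosome 19 members 12 to 25 higher (0.2068 to 0.2456). Corepressor genes numbered 0 to 1 higher and 6 to 11 lower (-0.1782 to -0.08129). Over all genes 1312 to 2423 were higher and 1715 to 2851 lower, and over other genes with the same minimum 962 to 1694 and 1570 to 2569, with medians of -0.03296 to -0.0288. Some members not past the test as reported changed sign. Of these, ZNF24 passed it without shControl replicate 1 (adjusted p = 0.00061), and ZNF106 passed it there (0.0198) and with total-count scaling (0.0489). Left-out libraries gave ZNF106 -0.000299 to 0.1705, ZNF24 -0.06982 to 0.2316, ZNF326 -0.0135 to 0.02403, ZNF330 -0.06328 to 0.09536, ZNF346 -0.03001 to 0.04695, ZNF384 -0.1452 to 0.01668, ZNF532 -0.1867 to 0.0008949 and ZNF76 -0.09959 to 0.07046. The other sign changes were, with no filter, ZNF326 (-0.005219) and ZNF346 (-0.004254), with total-count scaling ZNF384 (0.003633) and ZNF76 (0.04367), and among genes with 200 counts or more ZNF76 (0.007762). The cause of these changes was not tested. With 2 libraries per group, small changes can be missed. On simulated counts the test recovered 26% of 1.2-fold changes. That share covers genes of all levels and is not given for the members alone.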
